A study of Mus musculus with 6 samples.

Results

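10 genes of bile acid synthesis and transport were examined in liver: Cyp7a1, Cyp7b1, Cyp8b1, Cyp27a1, Amacr, Baat, Abcb11, Slc10a1, Nr1h4 and Nr0b2. Every probe set (the group of short array probes that reports on a transcript) annotated to exactly 1 of these symbols was used, which gave 16 of the 45037 probe sets tested and 10 of the 18193 gene symbols. The rule used no measured value. RNA came from 3 B6.Alb/cre,Pdss2loxP/loxP mutants, males of 176, 178 and 224 days, and from 3 B6.Pdss2loxP/loxP controls, males of 209, 213 and 140 days, each mouse on an array of its own. Both groups carry the floxed Pdss2 allele, and the mutants alone carry Cre under the albumin promoter, used to target the deletion to hepatocytes. Pdss2 encodes a subunit of the enzyme that makes the isoprenoid tail of coenzyme Q. The genotypes were caged apart and had food withdrawn 3 h before they were killed. The labels name control 1 as the concurrent control of mutant 3. The deposited values are on a log2 scale, and each difference is mutant minus control on that scale.

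Hepatocytes make bile acids from cholesterol. The classic route opens with Cyp7a1, the alternative route with side-chain oxidation by Cyp27a1, and peroxisomal enzymes then shorten the side chain before Baat joins the acid to an amino acid, taurine for the most part in mice. Abcb11 pumps the conjugates into the bile canaliculus, Slc10a1 takes returning bile acids up from portal blood with sodium, and the bile acid receptor FXR, encoded by Nr1h4, induces Abcb11 and the repressor SHP, encoded by Nr0b2.

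Promoter sequences are shown for Abcb11 and Nr0b2 because both are known targets of FXR and their values lay in opposite directions below. Each window runs from 250 bases before to 50 bases after a RefSeq transcript start in mouse build GRCm38.p6. The Abcb11 window is chr2:69342567-69342866 on the minus strand, and its capitals mark an inverted repeat of AGGNCA and TGNCCT with 1 base between them, the arrangement that FXR binds together with the retinoid X receptor. The Nr0b2 window is chr4:133553126-133553425 on the plus strand, and its capitals mark TCAAGG, a sequence bound by the orphan receptor Nr5a2.
Abcb11: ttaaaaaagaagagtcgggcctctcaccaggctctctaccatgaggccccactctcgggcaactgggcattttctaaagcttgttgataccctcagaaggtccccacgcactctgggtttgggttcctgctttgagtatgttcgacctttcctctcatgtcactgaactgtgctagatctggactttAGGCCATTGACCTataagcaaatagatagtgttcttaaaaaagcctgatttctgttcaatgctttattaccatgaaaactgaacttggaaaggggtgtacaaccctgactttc
Nr0b2: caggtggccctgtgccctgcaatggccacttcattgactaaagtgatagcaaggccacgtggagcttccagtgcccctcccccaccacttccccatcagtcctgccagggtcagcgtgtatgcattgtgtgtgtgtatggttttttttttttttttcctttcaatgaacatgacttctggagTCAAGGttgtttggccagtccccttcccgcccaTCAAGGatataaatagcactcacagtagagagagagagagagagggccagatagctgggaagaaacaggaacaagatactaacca
The repeat starts at position -63 from the transcript start of Abcb11. Of 32851 windows of the same length, 29 (0.0883%) hold such a repeat, and the windows of the other members do not. TCAAGG starts at -68 and at -35 in the Nr0b2 window. On either strand, 14.4% of all windows hold it at least once and 1.32% hold it 2 or more times. The motif letters were chosen after the windows had been read. Windows were found for 6 of the 10 genes, and a match describes letters, not a site in use. A site outside the window or with other letters would be missed, so the Nr0b2 window does not show that FXR sites are absent.

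None of the 16 probe sets passed a Benjamini-Hochberg adjusted p of 0.05 in limma over all 45037 probe sets, against a background of 1.99% of probe sets in either direction. At an adjusted p under 0.1 there were 2, Amacr and Abcb11, against 11.5% of all probe sets. At an unadjusted limma p under 0.05 there were 7, of which 5 had higher values in mutants and 2 lower ones. Over all probe sets, 15.7% were higher and 9.54% lower. The 5 higher include the dim probe sets Cyp7b1 1446995_at and Cyp27a1 1457665_x_at, at the 2.6th and 0.4th percentiles of brightness. When probe sets above the median brightness alone were fitted, 5 of 14 members had such a p, against 7850 of 22520 probe sets. The 3 mutants and the 3 controls did not overlap in 7 of the 16. In 5 of these every mutant lay above every control, against 21.2% of all probe sets, and in 2 every mutant lay below, against 10.7%. The values of all probe sets together had a median difference of 0.17 in favour of mutants, and that of the 16 was 0.13. After each array was centred on its own median, 4 members had all mutants above (13.8% of all probe sets) and 2 had all mutants below (14.5%). With 3 mice against 3, the smallest p an exact two-sided permutation test allows is 0.1, which every pair of groups that did not overlap reached.

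**Figure D1:**
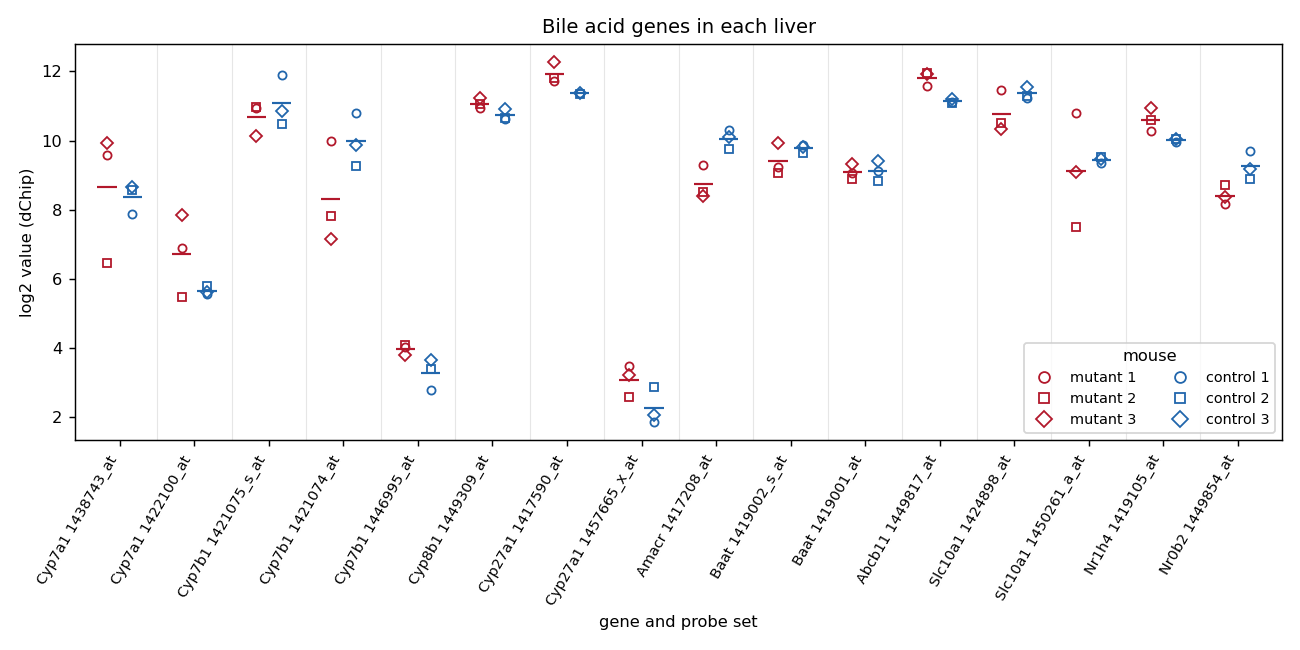
The 16 probe sets by mouse, in log2 units on the vertical axis, with the 3 mutants in red left of the 3 controls in blue and a bar at each group mean. Mutants lie apart from controls for Amacr and Nr0b2 (below) and for Abcb11, Nr1h4, Cyp8b1, 1 probe set of Cyp27a1 and the dim probe set 1446995_at of Cyp7b1 (above). Heights of different probe sets cannot be compared with each other.

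**Figure D2:**
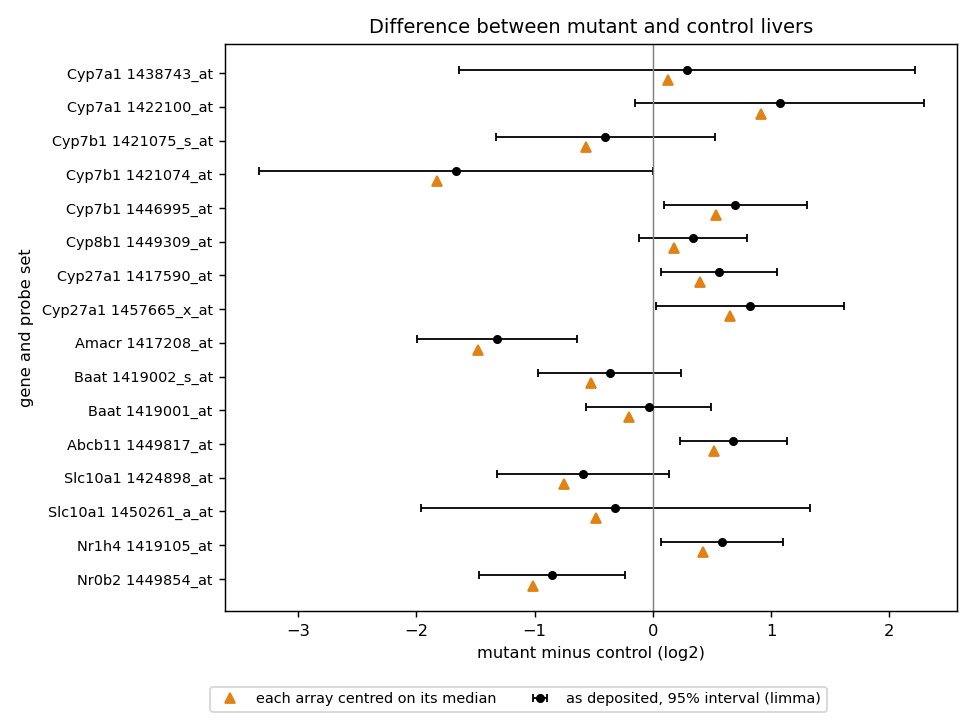
Mutant minus control in log2 units (horizontal axis) for each probe set, with the 95% interval from limma (black) and the value after each array was centred on its median (orange triangles). The interval is widest for the Cyp7a1 probe set 1438743_at, and Amacr has the lowest interval that excludes 0.

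Several measures of the arrays themselves moved with genotype. The array medians were 6.12 to 6.24 in mutants and 5.92 to 6.12 in controls. The Gapdh signal from the 3' end minus that from the 5' end was 0.45, -1.06 and -1.78 in mutants, against 2.31, 2.02 and 2.30 in controls. The bacterial BioB spike-in read 10.47, 11.03 and 10.74 in mutants, against 9.09, 8.96 and 8.73 in controls. Gapdh and BioB separated the groups without overlap, so array handling or RNA condition and genotype cannot be told apart for any gene described here. Pdss2 itself has 3 probe sets. Values of 1444085_at were 6.94, 6.88 and 7.05 in mutants, against 7.46, 7.47 and 7.56 in controls (difference -0.54, SE 0.18, limma adjusted p = 0.118), while the groups overlapped at 1459473_at and 1430723_at. No source used here places these probes relative to the deleted part, so the array values of Pdss2 neither check the labels nor go against them.

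Cyp7a1, which catalyses the rate-limiting hydroxylation of cholesterol, had the widest spread among mutants of the 10 genes. Probe set 1438743_at read 9.59, 6.46 and 9.93 in the mutants, against 7.88, 8.57 and 8.66 in the controls. Mutants 1 and 3 lay above every control and mutant 2 below every control. The group means were 8.66 ± 1.91 in mutants and 8.37 ± 0.43 in controls (SD, n = 3 each), a difference of 0.29 with a 95% interval of -1.64 to 2.21 (limma adjusted p = 0.865). Without mutant 2 the difference was 1.39 (adjusted p = 0.121), and without mutant 3 it was -0.35. The second probe set, 1422100_at, read 6.88, 5.47 and 7.84 in mutants, against 5.57, 5.80 and 5.61 in controls. Its order among mutants was that of the first probe set, with mutant 2 again lowest, while its difference of 1.07 (SE 0.53) had an adjusted p of 0.249. Cyp7a1 transcription is known to follow the day and the feeding cycle. Of 15 clock genes, counted by the brightest probe set of each, none passed the test over all probe sets. Every mutant lay above every control for 2, Npas2 (difference 1.12) and Per1 (1.60), against 23.3% of all genes. Every mutant lay below for 2, Clock (-1.03) and Nr1d2 (-0.73), against 14.1%. With 1 probe set per gene, Npas2 and Clock passed (limma adjusted p = 0.0355 and 0.0476), against 4.92% of all genes higher and 4.11% lower. Other probe sets differed by -0.65 for Npas2, by 0.14 for Nr1d2 and by -0.88 to -0.81 for Clock. The part of the clock genes in the Cyp7a1 values was not tested.

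Cyp7b1 hydroxylates the oxysterols of the alternative route. Its probe set 1421074_at read 9.99, 7.81 and 7.14 in mutants, against 10.81, 9.25 and 9.88 in controls. Mutants 2 and 3 lay below every control, while mutant 1 lay among them. The difference of -1.67 (SE 0.72, 95% interval -3.33 to 0.00) put the mutants at 31.5% of the control level and had an adjusted p of 0.199. Without mutant 1 it was -2.51 and passed (adjusted p = 0.0292), but there calls over all probe sets rose from 897 to 3840. With any other mouse left out, the adjusted p lay between 0.23 and 0.478. The brighter probe set 1421075_s_at, whose suffix marks probes that can match several transcripts, read 10.94, 10.97 and 10.12 in mutants, against 11.88, 10.48 and 10.87 in controls. Its groups overlapped, and the difference of -0.40 (SE 0.40) had an adjusted p of 0.578. The last one, 1446995_at, lay in the dimmest 2.6% of probe sets and went the other way, with 4.03, 4.10 and 3.81 in mutants against 2.80, 3.39 and 3.66 in controls (adjusted p = 0.149). The probe sets of Cyp7b1 therefore differed in sign.

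Cyp8b1 is the sterol hydroxylase needed for cholic acid, and so sets the share of cholic acid in the pool. It read 10.93, 11.04 and 11.23 in mutants, against 10.62, 10.64 and 10.92 in controls. Every mutant lay above every control by a narrow margin, and the groups overlapped once arrays were centred on their medians. The difference was 0.34 (SE 0.20, adjusted p = 0.326) as deposited and 0.18 after centring.

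Cyp27a1 oxidises the sterol side chain in mitochondria. Probe set 1417590_at read 11.72, 11.81 and 12.27 in mutants, against 11.39, 11.35 and 11.38 in controls. The controls lay within a narrow band with an SD of 0.02, and every mutant lay above it. The difference of 0.56 (SE 0.21) was 1.47-fold, with an adjusted p of 0.155. The other probe set, 1457665_x_at, is among the dimmest 0.4% of all and read 3.48, 2.58 and 3.22 in mutants, against 1.86, 2.88 and 2.08 in controls. Its groups overlapped (difference 0.82, adjusted p = 0.187).

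Amacr, the racemase that converts branched-chain acyl-CoA intermediates into the form peroxisomes can shorten, had the smallest adjusted p of the 10 genes. It read 9.30, 8.51 and 8.40 in mutants, against 10.30, 9.76 and 10.11 in controls. Every mutant lay below every control, with mutant 1 nearest to them. The means were 8.74 ± 0.49 in mutants and 10.05 ± 0.27 in controls (SD, n = 3 each), so mutants were at 40.1% of the control level. The difference of -1.32 (SE 0.29, 95% interval -1.99 to -0.65) had a limma adjusted p of 0.0585. Over 18193 genes with 1 probe set each, the brightest, the adjusted p was 0.0363. There Amacr was the only member called, against 4.11% of genes lower and 4.92% higher. Over all alternatives its adjusted p ran between 0.0155 and 0.2, and leaving out any mouse gave differences between -1.60 and -1.15.

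Baat, which joins bile acids to taurine or glycine, had overlapping groups at both probe sets. Values of 1419002_s_at were 9.24, 9.06 and 9.92 in mutants, against 9.86, 9.64 and 9.81 in controls. Mutants 1 and 2 lay below every control and mutant 3 above every control. The difference was -0.37, with a 95% interval of -0.97 to 0.24 (limma adjusted p = 0.426). At 1419001_at the mutants read 9.06, 8.90 and 9.33, against 9.13, 8.84 and 9.42 in controls. The difference there was -0.04 (95% interval -0.57 to 0.49), and it was 0.14 after quantile normalization. Both intervals admit a difference in either direction, down to -0.97 at 1419002_s_at.

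**Figure D3:**
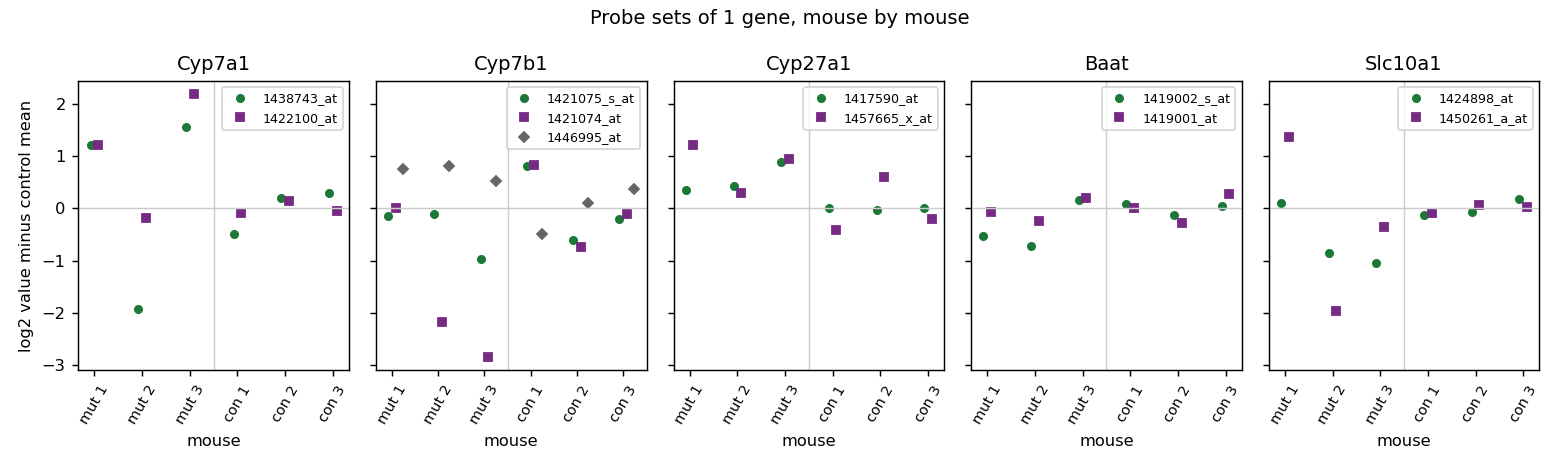
Log2 value minus the control mean (vertical axis) for each mouse, mutants left of controls, in the 5 genes with more than 1 probe set, with a symbol for each probe set. Mutant 2 is lowest at both Cyp7a1 probe sets and at 1450261_a_at of Slc10a1, and the grey diamonds of Cyp7b1 lie opposite to its other probe sets.

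Abcb11, the bile salt export pump of the canalicular membrane whose promoter is printed above, read 11.57, 11.94 and 11.91 in mutants, against 11.12, 11.08 and 11.20 in controls. Every mutant lay above every control, and the controls spanned less than the gap between the groups. The means were 11.81 ± 0.21 in mutants and 11.13 ± 0.06 in controls (SD, n = 3 each). The difference of 0.68 (SE 0.20, 95% interval 0.23 to 1.13) was 1.6-fold and had a limma adjusted p of 0.0911. Centring arrays on their medians left 0.52, and leaving out any mouse gave 0.61 to 0.80.

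Slc10a1, the sodium taurocholate cotransporter of the sinusoidal membrane, was less uniform. Values of 1424898_at were 11.47, 10.51 and 10.32 in mutants, against 11.24, 11.29 and 11.55 in controls. Mutants 2 and 3 lay below every control, while mutant 1 lay among them. The difference of -0.59 (SE 0.32) had an adjusted p of 0.284. Without mutant 1 it was -0.94 and passed (adjusted p = 0.0477), in the setting where 3840 of all probe sets did. With any other mouse left out, the adjusted p lay between 0.384 and 0.545. At 1450261_a_at the mutants read 10.81, 7.49 and 9.09, against 9.36, 9.52 and 9.47 in controls. Mutant 1 was the highest of the 6 mice there and mutant 2 the lowest, and the difference of -0.32 had a 95% interval of -1.96 to 1.33 (limma adjusted p = 0.819).

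Nr1h4, which encodes FXR, read 10.28, 10.61 and 10.93 in mutants, against 9.97, 10.03 and 10.06 in controls. Every mutant lay above every control. The difference of 0.59 (SE 0.22) was 1.5-fold, with a limma adjusted p of 0.154, and it was 0.42 after median centring. Nr0b2, which encodes SHP, a receptor without a DNA-binding domain that represses Cyp7a1 and Cyp8b1, read 8.16, 8.70 and 8.36 in mutants, against 9.69, 8.90 and 9.19 in controls. Every mutant lay below every control, with mutant 2 closest. The difference of -0.85 (SE 0.27, 95% interval -1.47 to -0.24) put mutants at 55.4% of the control level, with an adjusted p of 0.105. Leaving out any mouse gave -1.03 to -0.64. Abcb11 and Nr0b2, both targets of FXR, thus had differences of opposite sign, neither of which passed over all probe sets.

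**Figure D4:**
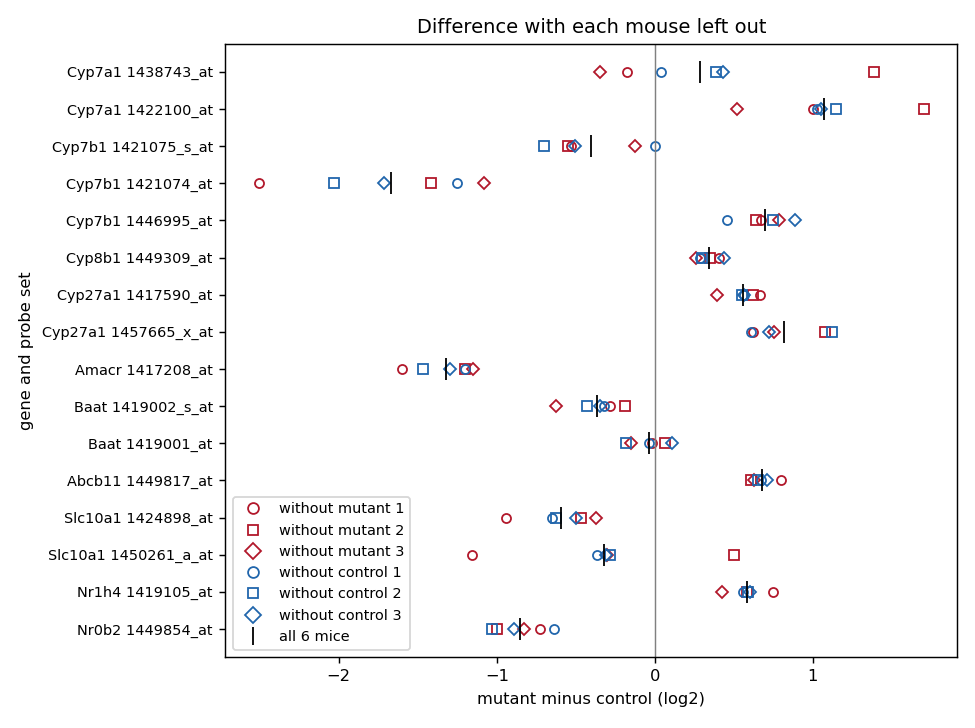
Mutant minus control in log2 units (horizontal axis) for each probe set with each mouse left out in turn (red for a mutant, blue for a control left out), and a black bar for all 6 mice. Differences of 12 of the 16 probe sets keep their sign, and Cyp7a1, Cyp7b1 1421074_at and Slc10a1 1450261_a_at have the widest scatter of points.

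Within groups, the range over mutants was wider than the range over controls at 10 of the 16 probe sets, while 59.4% of all probe sets had the wider range in mutants. The median range of the 16 was 0.86 in mutants and 0.42 in controls, against 0.60 and 0.49 over all probe sets. Mutant 3 minus its concurrent control 1, a single pair of mice that is part of the full comparison, can be given as values alone. Its differences were -1.90 for Amacr, -1.33 for Nr0b2 and -3.67 for Cyp7b1 1421074_at, and 2.05 and 2.28 for the Cyp7a1 probe sets. These are among the largest. The other Cyp7b1 probe sets gave -1.765 and 1.012. Of the 16, 14 had the sign of the full comparison, and those of Baat (0.061 and 0.193) did not.

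The remaining genes of the pathway were counted by the brightest probe set of each gene, and over all 18193 genes 1.73% were higher and 1.04% lower at an adjusted p of 0.05 over all probe sets. Of 17 other enzymes of synthesis and conjugation, none passed in either direction. Their median difference was 0.02, against 0.17 over all genes, with a range from -1.03 to 0.65. Of 16 other transporters, 1 rose and 1 fell. Abcb1a, an efflux pump for drugs and lipophilic compounds, read 6.56, 6.91 and 6.58 in mutants, against 4.51, 4.86 and 4.42 in controls (difference 2.09, limma adjusted p = 0.0263), although its other probe set differed by -0.34. The probe set that passed was dim, at the 35.5th percentile of brightness. Atp8b1, the canalicular phospholipid flippase whose loss causes cholestasis in people, fell by 1.46 (adjusted p = 0.0494), with 7.20, 6.38 and 6.81 in mutants against 8.60, 8.26 and 7.91 in controls. No mutant overlapped a control at either. Abcc2, the canalicular pump for conjugated organic anions, read 10.45, 11.40 and 10.94 in mutants, against 10.01, 9.56 and 8.74 in controls. It did not pass over all probe sets (limma adjusted p = 0.0709). With 1 probe set per gene it passed (limma adjusted p = 0.0474), where 4.92% of all genes were higher and 4.11% lower. Of 17 other regulators 14 were measured, and none passed. Every mutant lay above every control at 1 of these and below at 4, against 23.3% of all genes above and 14.1% below.

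**Figure D5:**
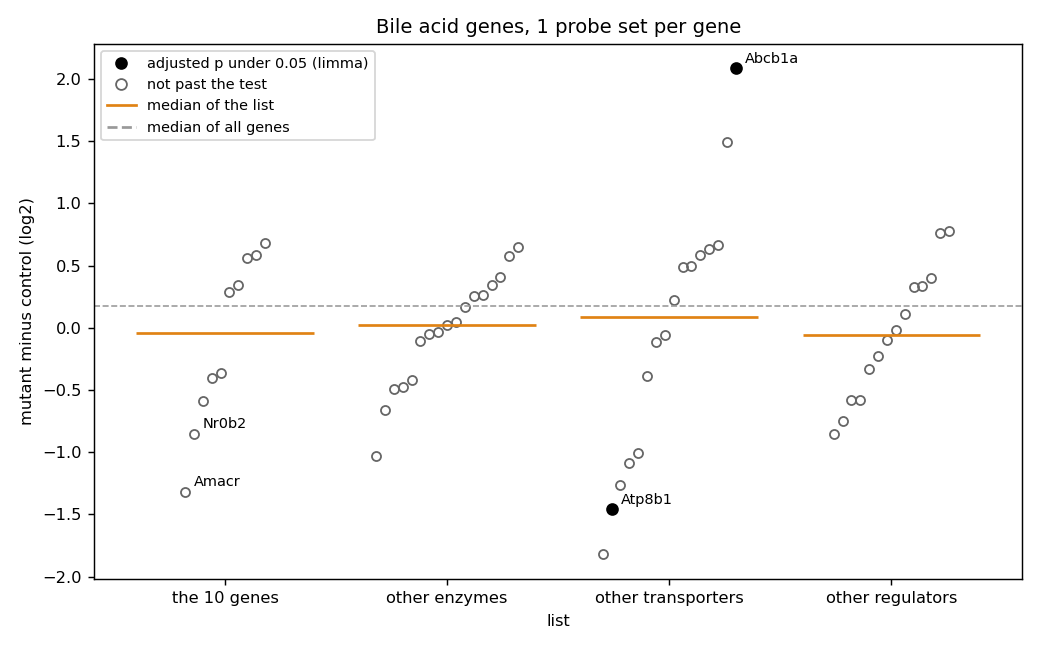
Mutant minus control in log2 units for the brightest probe set of each gene in the 10 genes and in the lists of other enzymes, transporters and regulators, with filled circles for an adjusted p under 0.05 over all probe sets, an orange line at each list's median and a dashed line at the median of all genes (0.17). Each list lies on both sides of 0, and the transporters spread from -1.82 to 2.09.

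Whole liver was measured, so fewer cells of a type and less RNA per cell cannot be told apart. The 13 measured hepatocyte markers were all bright, at or above the 95.8th percentile of probe sets, and none passed. Their summed linear signal was 88126 to 102742 in mutants and 97927 to 101659 in controls, with a median difference of -0.14. Of 12 endothelial markers 2 rose, Stab1 and Stab2, with differences of 1.39 and 1.82, against 1.73% of all genes higher. With 1 probe set per gene 4 passed, all higher, against 4.92% of all genes. Groups overlapped for others, among them Cdh5 (-0.163), Clec4g (0.115), Tek (0.129), Kdr (0.171) and Pecam1 (0.201). The summed signal of the 12 was 5994 to 9970 in mutants and 2686 to 4976 in controls. For 12 Kupffer cell and macrophage markers it was 2868 to 4621 in mutants and 1430 to 2759 in controls. Csf1r, the brightest of the 12, weighs most in that sum. It read 10.23, 11.58 and 10.61 in mutants, against 9.25, 9.28 and 10.72 in controls, so its groups overlapped. Every mutant lay above every control at 3 of the 12, against 23.3% of all genes, and Timd4 went the other way (-0.271). None of the 12 passed over all probe sets, and Clec4f did with 1 probe set per gene (difference 1.17, limma adjusted p = 0.0452). The summed signal of 8 cholangiocyte markers was 504 to 666 in mutants and 379 to 538 in controls. For 10 stellate cell markers it was 3599 to 4683 in mutants and 3495 to 4831 in controls. For 4 red blood cell markers it was 427 to 733 in mutants and 650 to 765 in controls. None of these 3 lists had a gene past the threshold over all probe sets. With 1 probe set per gene the cholangiocyte marker Krt19 passed (difference 1.08, limma adjusted p = 0.0308), against 4.92% of all genes higher. Every mutant lay above every control at 3 of the 8 cholangiocyte markers, Krt7, Krt19 and Cftr, against 23.3% of all genes. Groups overlapped for Epcam (0.209), Sox9 (0.205), Tspan8 (0.033), Cldn7 (0.354) and Prom1 (-0.051). No marker was at 0 on any array. The part of these markers in the values of the 10 genes was not tested.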

How the data were processed

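RNA was extracted with Trizol from flash-frozen liver and hybridized to Affymetrix mouse arrays, 1 for each of 3 mutants and 3 controls. The authors normalized and summarized the arrays in dChip from perfect-match probes, and the deposited log2 values were used as given. No detection calls were used here, so the signal over background of a probe set is unknown. 64 control probe sets of the array were left out. Symbols came from the platform annotation, in which 34945 of 45037 probe sets have 1 symbol, 932 several and 9160 none, and promoter windows came from RefSeq (GRCm38.p6). limma 3.58.1 in R 4.3.3 was fitted over all 45037 probe sets without a block, with Benjamini-Hochberg adjustment over all of them. p-values rest on the spread between separate mice, and 3 arrays a group limit the precision. Every probe set of the 10 genes was named, with Pdss2 and, of the other bile acid lists, genes that passed on their brightest probe set; Abcc2 and the clock and cell type genes named were added after their values were seen. The genes and lists were chosen with earlier results of these data known. Alternatives were quantile normalization, median centring, probe sets above the median brightness, the brightest or the mean probe set per gene, a replicate block, limma's trend and robust settings, a term for age, and each mouse left out.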

Additional observations from a re-analysis of the deposited data

How the results depend on the processing

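The count of the 16 bile acid probe sets past an adjusted p of 0.05 was 0 under quantile normalization, median centring, the mean of probe sets per gene, limma with trend and robust options and the replicate block. It was 1 (Amacr) among the 14 of the brighter probe sets alone, among the 10 with the brightest probe set per gene, and with age as a covariate, and 2 (Amacr and Abcb11) at an adjusted p of 0.1, which 11.5% of all probe sets passed. Leaving out a mouse gave 0 to 3, with 3 (Amacr, Cyp7b1 1421074_at and Slc10a1 1424898_at) without mutant 1. Over all probe sets, 897 passed, 561 higher and 336 lower. Median centring gave 300, 150 in each direction, the brighter probe sets alone 3050, the brightest probe set per gene 1643, its mean 502, trend and robust options 1413 and age 2515. Leaving out a mouse gave 0 to 3840: 3840 without mutant 1, 3 without control 1 and 0 without any of the others. In limma without mutant 2, mutant 3, control 2 or control 3, unadjusted p under 0.05 still held for 8983, 8663, 7526 and 11749 probe sets. The replicate block gave 0 in limma, with 7935 at an unadjusted p under 0.05, and 4 of the 16. Deviations of same-numbered mice correlated at 0.06, -0.50 and -0.56, so the numbers do not pair the mice. Between mutants and controls of different numbers the correlations ran from -0.448 (mutant 2 with control 1) to 0.617 (mutant 2 with control 3). For mutant 3 with its concurrent control 1 the correlation was 0.453. The cause of the changes in these counts was not tested. As none of the 16 was called in the main fit, no main call could change sign. Probe sets called in an alternative had the sign of the main fit there. Uncalled differences changed sign for Baat 1419001_at (0.14 under quantile normalization, 0.06 without mutant 2, 0.11 without control 3). They also did for Slc10a1 1450261_a_at (0.50 without mutant 2). The same held for Cyp7a1 1438743_at (-0.18 without mutant 1, -0.35 without mutant 3) and Cyp7b1 1421075_s_at (0.00 without control 1). Mutant 3 minus control 1 alone, a comparison added after seeing the data, turned both Baat probe sets positive (0.06 and 0.19).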
